A study of Mus musculus with 20 samples.

Results

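Tnfrsf1b and Tnfrsf1a encode TNFR2 and TNFR1, the receptors of tumour necrosis factor (TNF). They were followed transcript by transcript in colonoids, organoids grown in a gel from the colonic epithelium of mice. The members were all transcripts listed under either gene name, 8 of the 113193 transcripts in the table, of which 2 belonged to Tnfrsf1b and 6 to Tnfrsf1a. Summed per gene they gave 2 of 35277 genes. Cultures came from wildtype (WT, C57BL/6) mice and from whole-body Tnfr2-/- mice of a B6.129S2 line targeted at Tnfrsf1b. Collection was at day 1, day 2, day 3, day 5 or day 7 after passage (days post-passage, DPP), without added treatment named in the labels. The 20 libraries held 2 for each day of each genotype, 1 from each of 2 mice, with the replicate number in the labels read as naming the mouse. Each mouse therefore gave 5 libraries, and these repeated samples of 1 animal were not independent of each other. The knockout was in all cells, the cultures also held fibroblasts, and the exon that the targeted allele disrupts is not given in the sources used here. The questions were which transcripts carried the signal left in the knockout, and in what ratio the 2 receptors stood.

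TNF exists as a membrane protein and as a soluble form released from it. TNFR1 binds both and carries a death domain, through which it recruits adaptors that either activate NF-kappaB or start cell death. TNFR2 responds mainly to the membrane form, has no death domain, and binds TRAF proteins, which in turn bring in cIAP proteins. TNFR1 is made by most cell types, whereas TNFR2 is best known from lymphocytes, myeloid and endothelial cells and is induced in intestinal epithelium during inflammation.

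The models behind the transcript names, taken from GENCODE M21 on GRCm38 (the assembly also called mm10), differ greatly in length. Tnfrsf1b (ENSMUSG00000028599, chr4:145213463-145246870, minus strand) has a coding transcript of 10 exons and 3818 bases, Tnfrsf1b-201, and a short one of 4 exons and 375 bases, Tnfrsf1b-202, annotated as a target of nonsense-mediated decay. Tnfrsf1a (ENSMUSG00000030341, chr6:125349362-125362484, plus strand) has a coding transcript of 10 exons and 2156 bases, Tnfrsf1a-201. Its 5 other models are Tnfrsf1a-202 (621 bases, nonsense-mediated decay), Tnfrsf1a-203 (390 bases, coding), Tnfrsf1a-204 (250 bases, a processed transcript without a coding frame), Tnfrsf1a-205 (764 bases, a retained intron) and Tnfrsf1a-206 (885 bases, coding). No other annotated gene overlapped either locus.

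**Figure D1:**
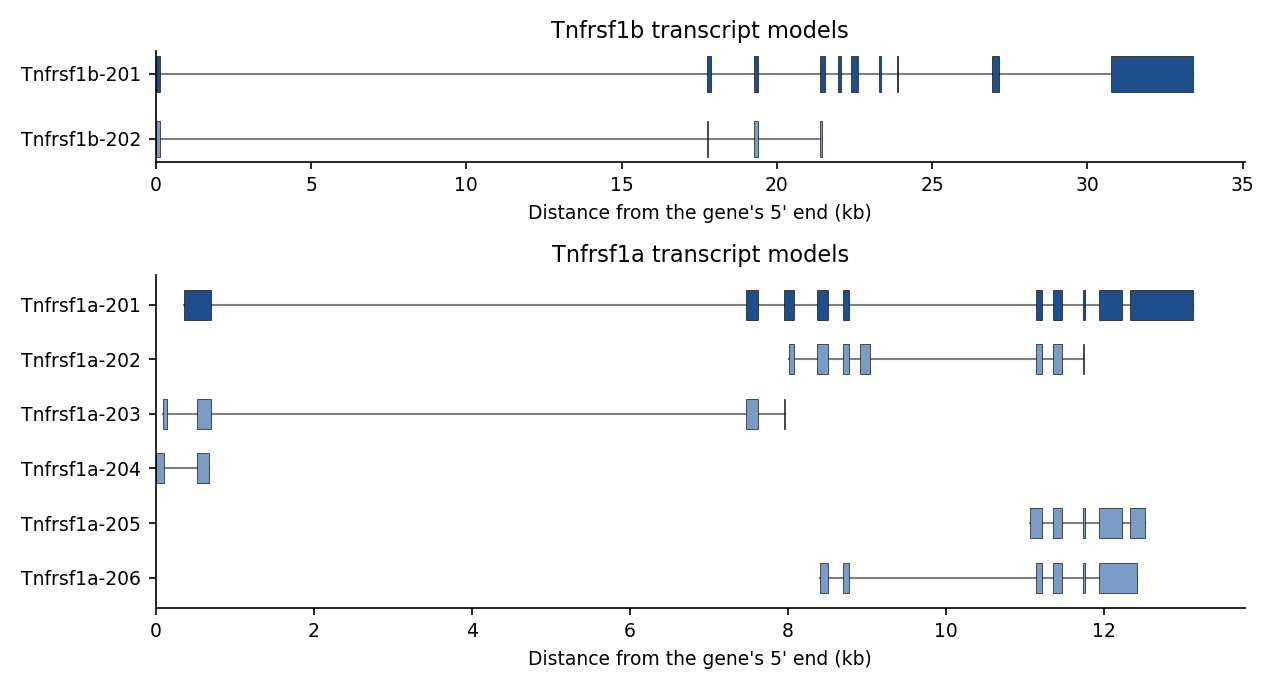
Exons (boxes) and introns (lines) of the 2 Tnfrsf1b and 6 Tnfrsf1a transcript models, drawn to scale as distance in kb from the 5' end of each gene, with Tnfrsf1b-201 and Tnfrsf1a-201 in dark blue. Tnfrsf1b-202 ends in exon 4 of the long transcript, and Tnfrsf1a-204 covers only the first kb of its gene.

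All 375 bases of Tnfrsf1b-202 also lie in exons of Tnfrsf1b-201. The 2 models part at exon 2, where Tnfrsf1b-202 keeps the first 32 of 103 bases and then joins exon 3, in which its reading frame ends. Exon 2 of Tnfrsf1b-201 (chr4:145229004-145229106, minus strand) is shown first, with the stretch kept in Tnfrsf1b-202 in capitals, because this choice alone tells the 2 transcripts apart within the bases they share. The next lines give the join of exon 2 (capitals) to exon 3 in each, 5' to 3', from the reference transcripts.
Tnfrsf1b-201 exon 2: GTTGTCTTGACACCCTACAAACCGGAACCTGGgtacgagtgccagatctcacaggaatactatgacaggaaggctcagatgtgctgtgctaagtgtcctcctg
Tnfrsf1b-201 junction: CTAAGTGTCCTCCTGgccaatatgtgaaac
Tnfrsf1b-202 junction: CAAACCGGAACCTGGgccaatatgtgaaac
Of the 345 words of 31 bases in Tnfrsf1b-202, 28 occur in no other Tnfrsf1b transcript, and these are the words that span its junction. In Tnfrsf1b-201, 3471 of 3788 words occur in it alone.

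Tnfrsf1a-204 shares its second exon, 147 bases, with exon 1 of Tnfrsf1a-201, mostly before the start codon, and its first exon of 103 bases lies upstream of the long transcript. Of its 220 words, 101 occur in no other transcript of the gene. Its junction of exon 1 (capitals) with exon 2 follows.
Tnfrsf1a-204 junction: CGTCCCGTGAGATAGcttctcgaactcgag
These junctions are shown because the division of each gene's signal between its transcripts rests on reads over such stretches, which the deposited values do not show one by one.

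Levels are TPM values (transcript abundances scaled by length and library total) that were further normalised by size factors. They are per length, so that transcripts and genes share a scale, but a count weighed more in a short model than length alone would give. At 2156 bases, 1 unit of Tnfrsf1a-201 was 4.02 estimated counts (derived below), and at 250 bases, 1 unit of Tnfrsf1a-204 was 0.105. Tnfrsf1b-201 carried the signal in both genotypes. WT mouse 1 had levels of 17.8, 13.4, 11.1, 13.95 and 21.9 at 1, 2, 3, 5 and 7 DPP, and WT mouse 2 had 16.4, 15.1, 14.5, 13.6 and 14.2. Tnfr2-/- mouse 1 had 4.19, 4.06, 3.70, 8.08 and 7.84 on those days. Tnfr2-/- mouse 2 had 2.50, 2.89, 4.37, 7.59 and 11.45. Both knockout libraries lay below both WT libraries on every day, which held for 0.212% of transcripts tested and, after summing, 0.62% of genes. Over all days the groups overlapped, because the highest knockout library (Tnfr2-/- mouse 2 at 7 DPP) exceeded the lowest WT library (WT mouse 1 at 3 DPP).

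**Figure D2:**
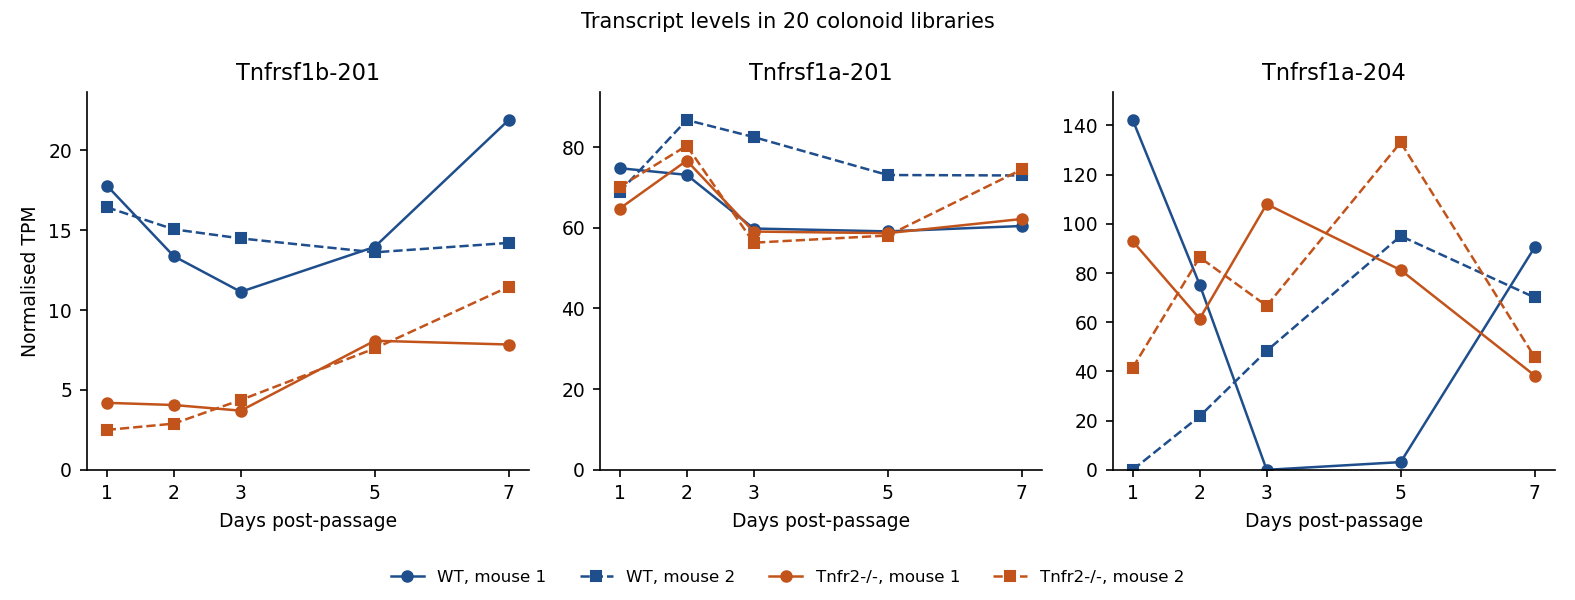
Level of Tnfrsf1b-201, Tnfrsf1a-201 and Tnfrsf1a-204 (normalised TPM, vertical axes from 0) against days post-passage, 1 point per library, joined within each of the 2 WT (blue) and 2 Tnfr2-/- (orange) mice. Tnfrsf1b-201 in Tnfr2-/- libraries stayed between 2.50 and 4.37 on the early days and reached 7.59 to 11.45 later, while Tnfrsf1a-201 overlapped between genotypes and Tnfrsf1a-204 ranged from 0 to 142.2.

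The mean level of Tnfrsf1b-201 was 15.2 ± 2.95 in WT and 5.67 ± 2.90 in Tnfr2-/- cultures (SD, n = 10 libraries each). The knockout mean was 37.3% of the WT mean. On the log2(value + 1) scale the difference was -1.38 (SE 0.177, limma adjusted p 0.00102 over 38609 transcripts). In this comparison 0.715% of transcripts were called (adjusted p under 0.05) and 0.212% were called lower. On mouse means, 2 against 2, the difference is the same by design, since every mouse gave every day, and it was not called (limma adjusted p 0.533). The call was also lost without the libraries of Tnfr2-/- mouse 1 (-1.41, adjusted p 0.0687).

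Tnfrsf1b-202 was above 0 in 3 of 20 libraries. Its level was 1.19 in WT mouse 1 at 1 DPP, 0.217 in Tnfr2-/- mouse 2 at 1 DPP and 1.15 in Tnfr2-/- mouse 2 at 3 DPP. These libraries were of both genotypes and of early days. Judged from transcripts of like length, at most 0.436 of an estimated count stood behind any of the values, so no pattern by genotype or day can be read from them. Tnfrsf1b-201 made up 99.2% of the summed WT signal of the gene and 97.65% of the summed knockout signal. In the 17 libraries without Tnfrsf1b-202 it was the whole of the gene's signal. Its lowest share was 79.2%, in Tnfr2-/- mouse 2 at 3 DPP. The share differed by -2.25 percentage points between genotypes (SE 2.17, limma adjusted p 0.883 over 34225 transcripts, of which 0.0146% were called).

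What the short model could hide follows from its length. The authors' deposited mean of log counts allowed an estimate of the counts behind a unit. For Tnfrsf1b-201, 1 unit corresponded to 7.43 estimated counts, near the median of 7.39 over 2383 transcripts of like length. The mean library thus held about 113 counts of it in WT and 42.1 in Tnfr2-/- cultures, with a range of 18.6 to 163 over all libraries. For 230 transcripts about as long as Tnfrsf1b-202, 1 count was worth 2.74 units. A listed 0 therefore allows a level of up to 8.21 (3 counts, counting error only), which is above most knockout levels of Tnfrsf1b-201. The share of Tnfrsf1b-202 within a library could not be resolved at this depth. The levels are assigned to whole transcripts, so they do not tell from which exons the reads came, nor whether the knockout transcript joins the same exons as the reference model.

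The signal left in the knockout grew over the course. As a share of the WT level on the same day, the mean Tnfrsf1b-201 level in Tnfr2-/- cultures was 19.55% at 1 DPP, 24.4% at 2 DPP and 31.5% at 3 DPP. It was 56.9% at 5 DPP and 53.5% at 7 DPP. Over the early days (1 to 3 DPP) the knockout level was 3.62 ± 0.759 (n = 6) against 14.7 ± 2.33 in WT, and over the late days (5 and 7 DPP) it was 8.74 ± 1.82 (n = 4) against 15.9 ± 3.995. The early and late libraries of the knockout did not overlap, whereas those of WT did. How many of all transcripts part in this way was not counted.

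Within Tnfr2-/- cultures, Tnfrsf1b-201 rose from early to late days by 1.077 on the log2(value + 1) scale (SE 0.200, adjusted p 0.0132), in a comparison in which 1.62% of transcripts were called higher. In WT the same contrast was 0.09 (SE 0.200, adjusted p 0.873). Summed per gene, Tnfrsf1b rose by 1.02 in the knockout (SE 0.181, adjusted p 0.00191), where 10.4% of 13549 genes were called higher, against 0.08 in WT (SE 0.181, adjusted p 0.800), where 11.6% were. The difference between the late and the early genotype effects was 0.94 per gene (SE 0.256, unadjusted p 0.00272, adjusted p 0.182) and 0.98 for Tnfrsf1b-201 (SE 0.282, adjusted p 0.406). It was not called at either level, where 0.118% of genes and 0.013% of transcripts were called higher. The transcript's rise in the knockout was not called on mouse means (1.077, adjusted p 0.466), without Tnfr2-/- mouse 1 at 5 DPP (1.06, 0.0571) or without Tnfr2-/- mouse 2 at 7 DPP (0.95, 0.0668). The gene's rise was not called on mouse means (adjusted p 0.0686).

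Day by day, the genotype difference of Tnfrsf1b per gene was called at 1 DPP (-2.09, SE 0.281, limma adjusted p 0.00659) and 2 DPP (-1.78, adjusted p 0.0270). The differences at 3 DPP (-1.31, adjusted p 0.109), 5 DPP (-0.74, 0.211) and 7 DPP (-0.83, 0.204) were not called. Few genes were called lower on single days, 0.0221% at 1 DPP, 0.0443% at both 2 and 3 DPP, 0.428% at 5 DPP and 0.192% at 7 DPP. Averaged over the early days the difference was -1.72 (SE 0.162, adjusted p 1.17e-04), in a contrast with 0.428% of genes called lower, and over the late days it was -0.79 (SE 0.198, adjusted p 0.0325), in one with 2.63%. With 2 libraries per group and day, leaving out 1 leaves a lone library, which the fit assumes to vary like the other groups, so that a lost call may reflect the smaller number. At 1 DPP the call was lost without WT mouse 1 (-1.99, adjusted p 0.1001) or Tnfr2-/- mouse 2 (-1.85, 0.109), and at 2 DPP without any 1 of the 4 libraries of that day (-1.96 to -1.59).

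The late call of Tnfrsf1b was lost with no filter on low values (adjusted p 0.0520) and when any 1 of 5 late libraries was left out. These were both Tnfr2-/- libraries and WT mouse 1 at 5 DPP, and mouse 1 of either genotype at 7 DPP, with differences of -0.81 to -0.64 and adjusted p of 0.0819 to 0.126. For the single transcript Tnfrsf1b-201 the early difference was -1.77 (SE 0.179, adjusted p 0.00130, with 0.0492% of transcripts called lower) and the day 1 difference -2.09 (adjusted p 0.0302, with 0.0207%). That day 1 call held in 13 of 20 fits with a library left out, and was lost also in some that left out libraries of 2 or 3 DPP. Its late difference, -0.79, equalled that of the gene and was not called among the larger number of transcripts tested (adjusted p 0.158, with 0.145%). Over all days Tnfrsf1b per gene differed by -1.35 (SE 0.167, adjusted p 9.76e-05), in a comparison with 7.59% of genes called, 3.09% lower and 4.51% higher. On mouse means that difference was not called (adjusted p 0.120), nor was the early one (0.1497).

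**Figure D3:**
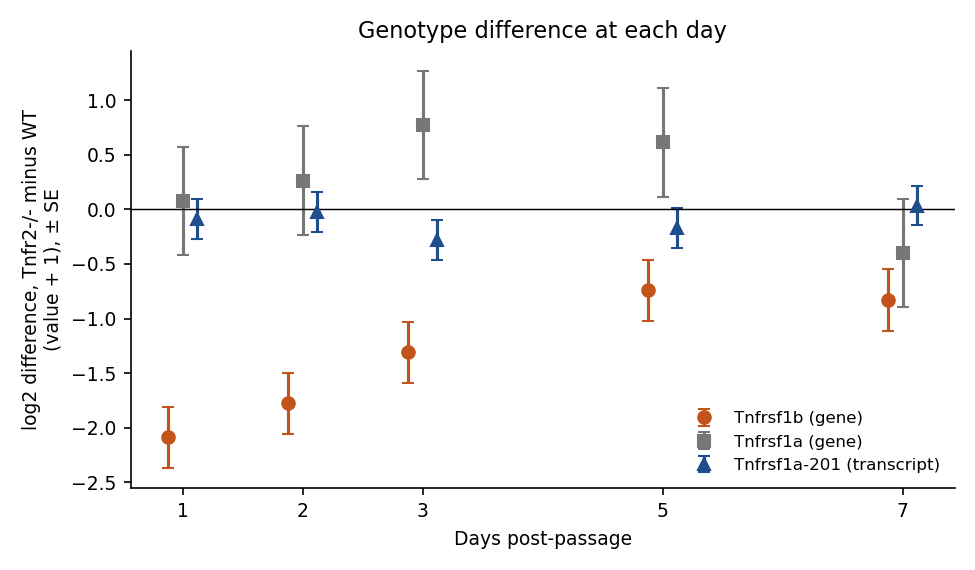
Genotype difference (Tnfr2-/- minus WT, log2 of value + 1) at each day post-passage with its SE from limma, for Tnfrsf1b and Tnfrsf1a summed per gene and for Tnfrsf1a-201. Tnfrsf1b runs from -2.09 at 1 DPP to -0.74 at 5 DPP, and Tnfrsf1a-201 stays between -0.28 and 0.03.

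Tnfrsf1a-201, the coding transcript of TNFR1, was the steadiest member. Its level lay between 59.1 and 86.7 in WT (median 73.0) and between 56.3 and 80.3 in Tnfr2-/- libraries (median 63.5), and the genotypes overlapped. The means were 71.1 ± 9.36 and 66.1 ± 8.71 (SD, n = 10 each). Between genotypes it differed by -0.10 over all days (SE 0.0765, limma adjusted p 0.636), and on single days it ranged from -0.28 at 3 DPP to 0.03 at 7 DPP, none of them called. The late-against-early difference of Tnfrsf1a-201 was -0.09 in Tnfr2-/- (adjusted p 0.794) and -0.16 in WT cultures (adjusted p 0.559). About 286 estimated counts stood behind the mean WT level and 265 behind the mean knockout level, with 1 unit worth 4.02 counts. Without the libraries of WT mouse 2, whose levels were 68.9 to 86.7, the genotype difference was 0.01 (adjusted p 0.969).

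Tnfrsf1a-204 was listed at levels as high as the coding transcript but varied far more. From 1 to 7 DPP the levels of WT mouse 1 were 142.2, 75.3, 0, 3.14 and 90.4, and those of WT mouse 2 were 0, 21.8, 48.4, 95.0 and 70.1. Tnfr2-/- mouse 1 had 92.9, 61.4, 108.0, 81.2 and 38.3, and Tnfr2-/- mouse 2 had 41.5, 86.4, 66.7, 133.1 and 45.8. The 2 libraries at 0 and the highest library were all WT, so the knockout range lay within the WT range. The coefficient of variation was 88.4% in WT and 40.8% in the knockout, against 13.2% in either genotype for Tnfrsf1a-201. The genotype difference was 1.66 (SE 0.903, adjusted p 0.492), which was not called.

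Those levels rest on very few reads. For Tnfrsf1a-204, 1 estimated count was worth 9.49 units, close to the 9.85 of 17 transcripts of like length, so that its range corresponded to 0 to 15 counts per library. A listed 0 allows a level of up to 29.6. Tnfrsf1a-204 held 42.5% of the summed Tnfrsf1a signal in WT and 51.8% in Tnfr2-/- libraries, against 55.4% and 45.3% for Tnfrsf1a-201. It was over 50% of the gene in 4 of 10 WT and 6 of 10 Tnfr2-/- libraries. Neither share differed with a call, at 16.3 percentage points for Tnfrsf1a-204 (SE 9.49, adjusted p 0.799) and -16.4 for Tnfrsf1a-201 (SE 8.96, adjusted p 0.784).

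**Figure D4:**
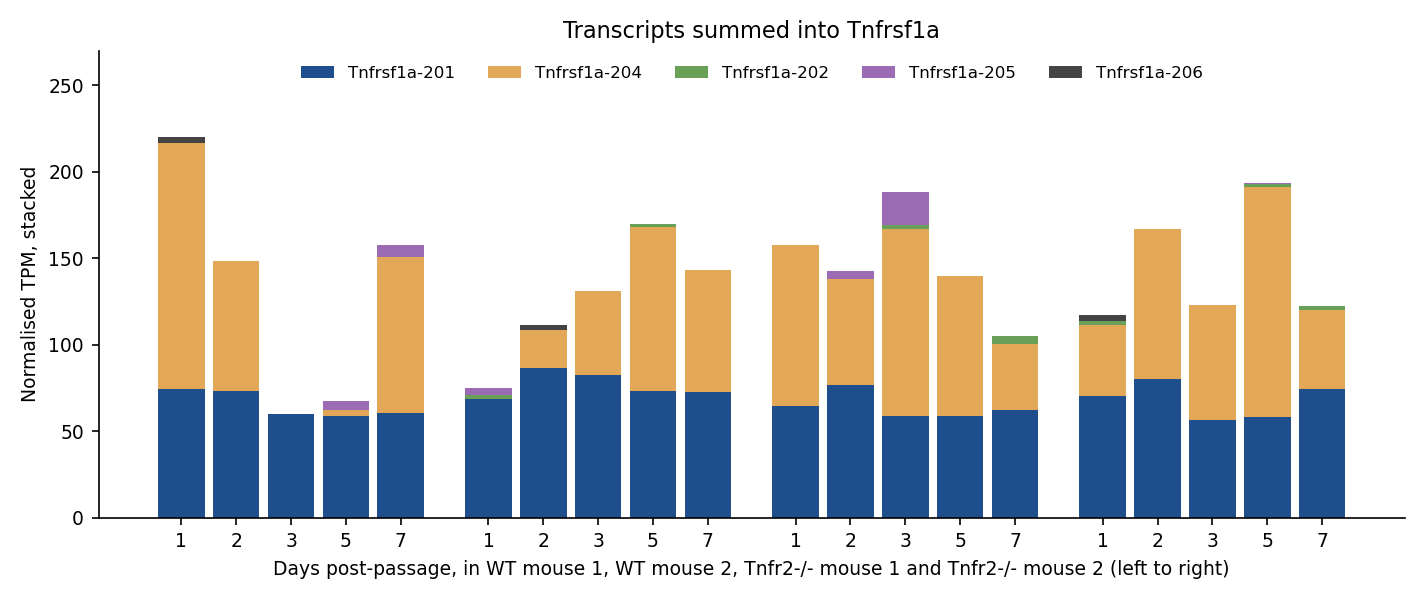
Levels of the Tnfrsf1a transcripts stacked in each of the 20 libraries (normalised TPM from 0), by days post-passage within each mouse. The dark blue part, Tnfrsf1a-201, lies between 56.3 and 86.7 in every library, and the orange part, Tnfrsf1a-204, between 0 and 142.2. Tnfrsf1a-203 was listed at 0 throughout and is not drawn.

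The other Tnfrsf1a transcripts were low. Tnfrsf1a-202 was listed above 0 in 2 WT and 5 Tnfr2-/- libraries, at 1.90 to 4.53. Tnfrsf1a-205, the retained intron, reached 19.4 in Tnfr2-/- mouse 1 at 3 DPP and at most 7.05 in WT, with a genotype difference of -0.05 (adjusted p 0.989). Tnfrsf1a-206 was above 0 in 2 WT libraries and 1 Tnfr2-/- library, at 2.70 to 3.44. Tnfrsf1a-203 was listed at 0 in all 20 libraries, where a 0 allows a level of up to 7.53.

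Summed per gene, Tnfrsf1a was 128.5 ± 50.8 in WT (59.8 to 220.3) and 145.8 ± 30.3 in Tnfr2-/- cultures (105.0 to 193.9; SD, n = 10 each). The difference was 0.27 (SE 0.218, limma adjusted p 0.511) and was not called. With 1 library left out it ranged from 0.15 (without WT mouse 1 at 5 DPP, and likewise at 3 DPP) to 0.39 (leaving out the same mouse at 1 DPP), with no call. Summed without Tnfrsf1a-204, an alternative chosen after the values were seen, the gene was 73.8 ± 8.60 in WT and 70.2 ± 9.83 in Tnfr2-/- cultures. The sign of the difference then turned to -0.08 (adjusted p 0.620), again not called. No genotype difference in Tnfrsf1a was thus detectable with either sum, and its direction depended on the 250-base transcript.

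The ratio of the receptors followed from these levels. With gene sums, WT cultures held 8.37 ± 2.91 times as much Tnfrsf1a as Tnfrsf1b (4.58 to 12.5), and Tnfr2-/- cultures 31.4 ± 16.1 times (10.7 to 57.7; SD, n = 10 each). With the coding transcripts alone, Tnfrsf1a-201 over Tnfrsf1b-201, the ratio was 4.82 ± 0.951 in WT (2.76 to 5.76) and 14.8 ± 8.11 in Tnfr2-/- cultures (6.5 to 28.1). By this measure every knockout library stood above every WT library, which with gene sums was not so. TNFR1 transcripts were thus the more abundant of the pair in all 20 libraries.

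The difference between genotypes in the log2 ratio of Tnfrsf1b to Tnfrsf1a (pseudocount 1) was -1.61 with gene sums and -1.27 with the coding transcripts. Both gave p 0.0002572 in an exact two-sided permutation test of genotype within days, the smallest p that its 7776 arrangements allow. The test treats the 20 libraries as independent. On mouse means, with 6 arrangements, p was 0.333, which is the smallest that 2 mice against 2 allow. Since Tnfrsf1b is the targeted gene and Tnfrsf1a-201 differed by less than the spread between replicates, the ratio restates the loss of Tnfrsf1b for the most part.

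Over the course the ratio of the coding transcripts came down in the knockout. It was 15.45, 18.9, 15.95, 7.26 and 7.93 in Tnfr2-/- mouse 1 and 28.1, 27.8, 12.9, 7.65 and 6.5 in Tnfr2-/- mouse 2, from 1 to 7 DPP. The early mean was 19.8 ± 6.56 (n = 6) and the late mean 7.335 ± 0.620 (n = 4). In WT the early mean was 5.12 ± 0.725 and the late mean 4.38 ± 1.18. The genotype difference in the log2 ratio was -1.64 on the early days (exact permutation p 0.00926, n = 12 libraries, also the smallest possible) and -0.72 on the late days (exact permutation p 0.0556, the smallest that these 8 libraries allow). These tests by period were chosen after the data were seen, and whether the early and late differences differed was not tested for the ratio.

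**Figure D5:**
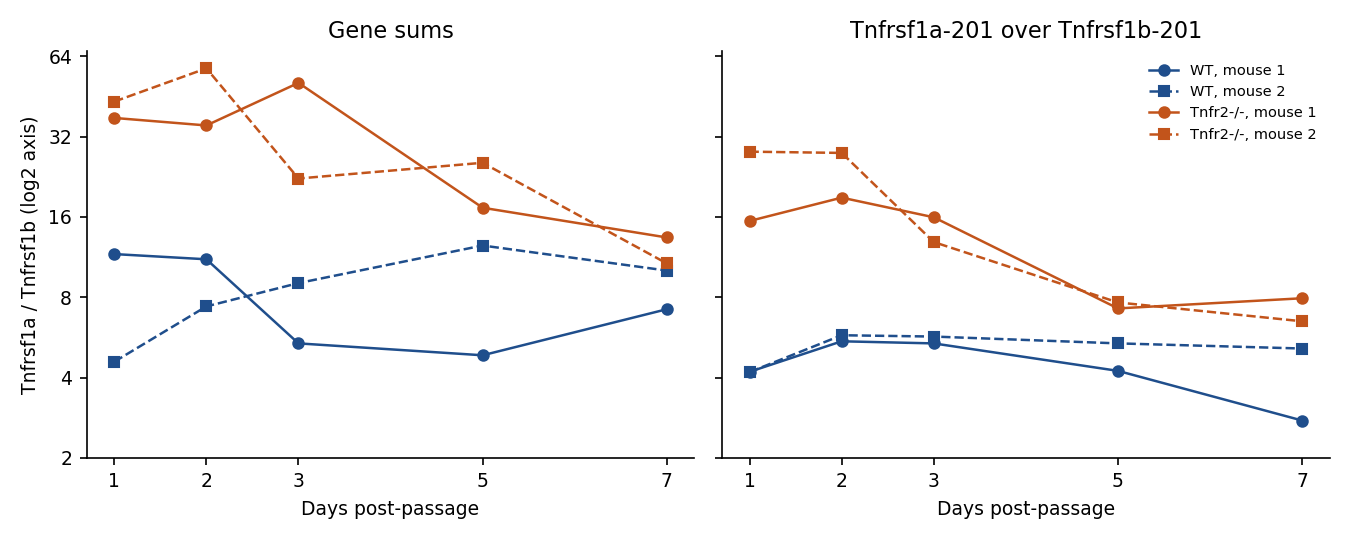
Tnfrsf1a over Tnfrsf1b in each library against days post-passage on a log2 axis, with gene sums (left) and with the coding transcripts Tnfrsf1a-201 and Tnfrsf1b-201 (right), joined within each mouse. On the right the WT libraries lie between 2.76 and 5.76 and the Tnfr2-/- libraries between 6.5 and 28.1.

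The other genes of the pathway were taken from a list of 38 genes, of which 36 passed the filter. Over all days 4 of the 36 were called higher in Tnfr2-/- cultures and none lower, where 4.51% of all genes tested were called higher and 3.09% lower. The median difference was 0.07 over the list and -0.03 over all genes tested. None of the 36 was called on the early days, where 1.2% of all genes were. Over the late days 6 were called higher and 1 lower (median 0.16), where 6.42% of all genes were called. This count holds only for the calls made one gene at a time, and no test of the list was run.

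Of the ligands, Tnf was 11.4 ± 6.31 in WT and 19.4 ± 12.6 in Tnfr2-/- cultures (SD, n = 10 each), with a difference of 0.62 over all days (limma adjusted p 0.0732), which was not called, and 1.17 over the late days (adjusted p 0.0304), which was. The all-days difference was called without WT mouse 2 (0.85, adjusted p 0.0182) or without its library at 1 DPP (0.0139) or 3 DPP (0.0478), whereas it was 0.40 and not called without WT mouse 1. From early to late days Tnf rose by 1.69 in the knockout (adjusted p 8.69e-04, but 0.0686 on mouse means). In WT it differed by 0.78 (adjusted p 0.0550), which passed the threshold when mouse was a correlated block (0.0391) and in 3 of 20 fits with a library left out, but not in the other alternatives, mouse means among them. Lta, which encodes the other ligand of both receptors, was listed at 0 or near it, with a highest value of 0.378. Of the genes that act on shedding of the receptors, Adam17, the protease that releases their outer domains, differed by 0.04 (adjusted p 0.838). Timp3, its inhibitor, differed by 0.45 (adjusted p 0.197), with 0.73 without WT mouse 2 (adjusted p 0.0412) and 0.16 without WT mouse 1 (0.704). Timp3 rose from early to late days in both genotypes, by 2.37 in Tnfr2-/- and 2.21 in WT cultures (adjusted p 3.56e-04 and 6.93e-04).

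Downstream of the receptors, the groups of the list held 3 to 8 measured genes each, too few for their counts to be set apart from the 7.59% of all genes called over all days. In the death domain and caspase arm, 1 of 7 genes was called over all days, Casp8, the initiator caspase (0.44, adjusted p 0.0326). Of the 5 measured TRAF and cIAP ubiquitin ligases, Birc3, which encodes cIAP2, was called (0.56, adjusted p 0.0451). Among 4 NF-kappaB subunits, Nfkb2 was called (0.34, adjusted p 0.00936), and among 6 feedback inhibitors, Nfkbia, the inhibitor IkappaB alpha (0.58, adjusted p 0.0110). None of 8 kinases and none of the 3 genes of the linear ubiquitin complex was called over all days. With the mouse as a correlated block the calls of Casp8 (adjusted p 0.0791) and Birc3 (0.103) were lost, as they were with no filter on low values (0.0573 and 0.0798), that of Birc3 also with day as a linear term (0.129), and on mouse means those of all 4 were. When single libraries or whole mice were left out, Nfkbia stayed called in 22 of 24 fits, Nfkb2 in 21, Casp8 in 14 and Birc3 in 6.

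Over the late days the same 4 genes were called, Casp8 at 0.53 (limma adjusted p 0.0434), Birc3 at 0.92 (0.0214), Nfkb2 at 0.49 (0.0207) and Nfkbia at 0.81 (0.0234). Tnfaip3, which encodes the ubiquitin-editing inhibitor A20, was also called (0.88, adjusted p 0.0219). Rbck1, which encodes the HOIL-1 subunit of the linear ubiquitin complex, was the 1 gene called lower (-0.83, adjusted p 0.0319). The late call of Casp8 was lost with the mouse as a block (adjusted p 0.0614), and on mouse means all 7 late calls of the list were lost. With no filter on low values the late calls of Tnf (0.0548), Casp8 (0.0650) and Rbck1 (0.0541) were lost. With single libraries left out, each of the 7 lost its call in some of 20 fits, with Nfkb2 called in 17 and Casp8 in 6.

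Cultures held more than epithelium, and in bulk RNA fewer cells of a type and less RNA per cell cannot be told apart. The epithelial markers were abundant in all libraries, with a summed level over 7 genes of 6843 to 10300 in WT and 7769 to 10410 in Tnfr2-/- libraries. Of the 7, Epcam (0.36, limma adjusted p 0.0336) and Cdh1 (0.25, adjusted p 0.0222), which encode epithelial adhesion proteins, were called higher in Tnfr2-/- cultures over all days, where 4.51% of all genes were. Vil1 (-0.24), Cdx2 (-0.23), Krt8 (0.06), Krt18 (0.24) and Krt20 (0.35) were not called. The mean epithelial sum was 8137 in WT and 9583 in Tnfr2-/- cultures on the early days, and 8963 and 8944 on the late days. Summed fibroblast markers (8 genes) were 1075 to 3581 in WT and 2633 to 6968 in Tnfr2-/- libraries. In Tnfr2-/- cultures their mean was 3201 on early and 5226 on late days, and in WT 3102 and 2247. Of the 8, Dcn (1.65, adjusted p 0.00102) and Thy1 (1.37, adjusted p 0.0156) were called higher over all days, beside the same 4.51% of all genes. The other 6 were not called, with Pdgfra at -0.10, Col3a1 at 0.02, Lum at 0.16, Acta2 at 0.39, Col1a2 at 0.51 and Col1a1 at 0.71. On mouse means neither Dcn nor Thy1 was called (adjusted p 0.120 and 0.456). Thy1 was 0.56 without Tnfr2-/- mouse 2 (adjusted p 0.246), 1.19 without WT mouse 1 (0.173) and 2.19 without Tnfr2-/- mouse 1, whereas Dcn stayed called in all 24 fits with a library or mouse left out.

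Immune markers (10 genes) summed to 8.53 to 22.0 in WT and 17.7 to 49.0 in Tnfr2-/- libraries. Of these, Cd68 (1.13, limma adjusted p 4.51e-04) and Csf1r (0.76, adjusted p 0.0286) were called higher over all days, where 4.51% of all genes were. Neither was called on mouse means (0.120 and 0.403). Csf1r was not called with the mouse as a block (0.0671) or with no filter (0.0503), and stayed called in 16 of 24 fits with a library or mouse left out, and its difference was 1.13 with a pseudocount of 0.1 and 0.35 with one of 5. Cd68 and Csf1r were the 2 of 10 that passed the filter. The other 8, Ptprc and the lymphocyte markers among them, had means below 1 and a highest value of 4.36, and Ptprc (0.227 in WT, 0.137 in Tnfr2-/-), Itgam (0.314, 0.0863) and Cd4 (0.299, 0.0904) had lower means in Tnfr2-/- cultures. Summed endothelial markers (3 genes) were at most 4.17. The fibroblast and immune sums thus had their highest means in the late knockout libraries (the immune sum 38.7, against 24.2 in the early ones), in which Tnfrsf1b-201 was also higher than in the early ones. Single genes carried much of these sums, Cd68 (10.48 in WT, 24.73 in Tnfr2-/-) that of the immune markers and Dcn (476.0, 1395.5) the gap in that of the fibroblast markers, and their part in the Tnfrsf1b level was not tested.

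The genes whose levels moved most like the receptors' are given as a description, with Pearson's r on the log2 scale across libraries among 10656 genes. For Tnfrsf1b in the 10 WT libraries they were Prdx5 (r 0.981), Krt20 (0.975), Btbd11 (0.942), Klf6 (0.941) and Ctnna1 (0.911). In the 10 Tnfr2-/- libraries they were Pfkfb3 (0.976), Sik1 (0.974), Atp8a1 (0.971), Rffl (0.968) and Tspan14 (0.966). For Tnfrsf1a over all 20 libraries the closest were Gm49321 (0.693), Mal (0.679), Tmem183a (0.645), Gm13509 (0.627) and Fam129b (0.609). The Tnfrsf1a level here was the gene sum, which includes Tnfrsf1a-204 at 0 to 15 estimated counts per library. Likeness was not computed without that transcript. The libraries of a mouse shared their animal and those of a day their stage, and the highest of 10656 correlations is high by selection. Without the 2 libraries farthest from the median of the receptor, r for Prdx5 was 0.932 and for Pfkfb3 0.983, and for Mal 0.385.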

How the data were processed

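Stranded mRNA libraries of total RNA from 20 colonoid samples were sequenced as single-end reads. According to the submitters' processing notes, CASAVA, kallisto and sleuth were used with mm10. The deposited values are a signal per transcript, TPM that the authors scaled with library size factors, summing to 900655 to 1111080 per library. The deposited natural log means of estimated counts were used only to estimate counts per unit, assuming sleuth's default offset of 0.5. The authors' p-values, q-values and test statistics were not used. Repeated lines (781) were dropped, alternate loci (414) were merged, and 199 transcripts without a gene, at most 0.0989% of a library, were left out.

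Values were fitted as log2(value + 1), which understates changes of low values, using limma 3.58.1 (R 4.3.3; trended prior variance), for all genes (13549) or transcripts (38609) with a mean of at least 1. P-values were adjusted by Benjamini-Hochberg over all of them. Genotype over all days used day as a factor. Other contrasts came from 1 fit of 10 groups. Shares were fitted in percent for transcripts with a mean share of at least 5. Ratios were tested by exact permutation. The planned design expected TPM or counts, so the test for normalised abundances was used. Fits were tested on simulated data. Read totals per library were not used here, so counting error was judged only from the estimated counts per unit.

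Libraries of 1 mouse deviated from their group means with correlations of 0.0998 to 0.307 in WT and -0.0513 to 0.0797 in Tnfr2-/-. Alternatives covered the pseudocount, filter, scaling, day term, mouse and left-out libraries. Members, both gene lists and the naming rule were chosen with earlier results of these data known. The rule named all members, the called pathway genes, ligands and shedding genes, and the 5 genes most alike in pattern. Between 13017 and 13476 genes per library reached a value of 1. Lists of the pathway and of cell type markers held 38 and 28 genes. One junction sequence is not reported here.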

Additional observations from a re-analysis of the deposited data

Results flagged for a closer look

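Among 66 groups of 4 to 10 libraries examined, 18 values stood apart from the others of their group, where chance gives about 1 in 20 groups. That rate is nominal and does not apply to transcripts listed at 0 in most libraries, where a single value above 0 always stands apart. Some values count more than once, since the early and late libraries are part of all days and Tnfrsf1b-201 is nearly the whole of Tnfrsf1b, so no excess over chance is shown.

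Of the late libraries of WT, mouse 1 at 7 DPP had the highest level of Tnfrsf1b-201 and so of Tnfrsf1b, 21.89 against 14.2 for the nearest. It also had the lowest ratio of Tnfrsf1a-201 to Tnfrsf1b-201 among WT libraries, 2.76 against 4.193. Of the late Tnfr2-/- libraries, mouse 2 at 7 DPP had the highest level of Tnfrsf1b-201 and of Tnfrsf1b, 11.45 against 8.077. The late genotype difference of Tnfrsf1b was -0.64 without the first of these libraries (adjusted p 0.104).

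The other values that stood apart belonged to transcripts listed at 0 in most libraries. For Tnfrsf1b-202 they were 1.194 in WT mouse 1 at 1 DPP and 1.146 in Tnfr2-/- mouse 2 at 3 DPP. For Tnfrsf1a-202 they were 1.902 and 2.007 in WT mouse 2 at 1 and 5 DPP and 4.527 in Tnfr2-/- mouse 1 at 7 DPP. For Tnfrsf1a-205 they were 4.524 in WT mouse 2 at 1 DPP, 19.39 in Tnfr2-/- mouse 1 at 3 DPP and 0.7138 in Tnfr2-/- mouse 2 at 5 DPP, and for Tnfrsf1a-206 the value was 3.438 in Tnfr2-/- mouse 2 at 1 DPP.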

How the results depend on the processing

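Each of these values rests on 2 mice per genotype. On mouse means (2 residual degrees of freedom) none of the member calls over all, early or late days or over the course held (single days were not run). The differences cannot change there, since every mouse gave every day. For Tnfrsf1b they were -1.35 over all days, -1.72 early, -0.79 late and 1.02 for the knockout course. For Tnfrsf1b-201 they were -1.38, -1.77 early and 1.077 for the course, and for the ratio -1.61 (exact permutation p 0.333). On mouse means 7 genes and 1 transcript were called over all days, against 1029 and 276 otherwise. With the mouse as a correlated replicate block 543 genes were called. With that block Tnfrsf1b stayed called over all days (-1.35, adjusted p 4.93e-04), and no call of a member was lost. Among the list genes followed through the alternatives, calls that the block changed are given beside them. Epcam, Cdh1 and the course of Timp3 were not among these, and how they fared is not reported here. With the replicate number as a fixed block, which pairs mice of different genotypes by number only, 1220 genes were called (correlations of -0.0517 to 0.0769 between same-numbered WT and Tnfr2-/- libraries).

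Without a filter the late value of Tnfrsf1b (-0.79) was not called, nor were 6 calls of list genes and markers given beside them. As a log ratio the share of Tnfrsf1b-201 was called (-1.40, adjusted p 0.0394), since that measure moves with the level where the rest of the gene is at 0, and 13 transcripts were called instead of 5. Pseudocounts moved the Tnfrsf1b difference between -1.51 (0.1) and -0.94 (5). Tnfrsf1a turned to -0.075 without Tnfrsf1a-204, and Tnfrsf1a-205 to 0.021 with a pseudocount of 5. Under median-ratio rescaling, which moved libraries by -0.02 to 0.05, 64.1% of calls were higher, against 59.4%.

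With 1 library left out, the values ranged from -0.93 to -0.64 for Tnfrsf1b late and -0.069 to 0.23 for its WT course. For Tnfrsf1b-201 they were 0.954 to 1.201 for the knockout course and -0.054 to 0.24 for the WT course. At 7 DPP alone Tnfrsf1b ranged from -1.13 to -0.53. Whole mice were left out only over all days. With 1 library or 1 mouse left out there, the ranges were -1.46 to -1.285 for Tnfrsf1b-201, -0.22 to 0.010 for Tnfrsf1a-201 and 1.10 to 2.12 for Tnfrsf1a-204. They were 0.15 to 0.39 for Tnfrsf1a per gene, -0.66 to 0.57 for Tnfrsf1a-205 and -0.017 to 0.096 for Adam17. The share of Tnfrsf1b-201 ranged from -5.12 to 0.63 percentage points. The ratio stayed between -1.75 and -1.48 (exact permutation p at most 0.00412). Without all libraries of 1 mouse, 143 to 1924 genes were called.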
